A study of Mus musculus with 84 samples.

Results

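BI 456906 at a dose of 20 nmol/kg was compared with vehicle in the liver of diet-induced obese mice. The comparison holds 12 of the 84 libraries of the series, namely 6 livers of mice given BI 456906 at 20 nmol/kg and 6 livers of mice given vehicle, chosen by the tissue and the treatment group in their labels. BI 456906 is a long-acting acylated peptide that activates both the glucagon receptor (GCGR) and the glucagon-like peptide-1 receptor (GLP-1R). All mice were male C57BL/6J, ate a 60% high-fat diet (D12492) before and throughout the treatment, were 22 weeks old at its start and were injected subcutaneously every day for 30 days. The study treated 11 mice in each group, and the labels give 6 liver libraries per group. The other liver libraries, of mice given BI 456906 at 3, 10 or 30 nmol/kg or semaglutide at 20 or 100 nmol/kg, brought the fit to 42 libraries in 7 groups. Each library was made from a piece of whole liver, in which fewer cells of a type and less RNA per cell cannot be told apart. The labels number libraries rather than mice, so the p-values measure the spread between these samples.

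Glucagon acts on hepatocytes through GCGR, a receptor coupled to cyclic AMP (cAMP), protein kinase A and the transcription factor CREB. It is known for raising hepatic glucose output, amino acid breakdown and ureagenesis. GLP-1R is not known to be expressed by hepatocytes at a substantial level, and its agonists reach the liver mainly through food intake, insulin and body weight.

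The vehicle libraries held 40479375 to 46477987 reads and those at 20 nmol/kg held 39597200 to 46416083. Levels are given in TPM, a unit relative to transcript length and library size, with the SD over 6 libraries, and a change is the log2 fold change of 20 nmol/kg over vehicle, with its standard error (SE), from limma/voom. A gene is said to have risen or fallen where its false discovery rate (FDR, adjusted over all 15964 genes tested) was at most 0.05, and it is called where the log2 fold change was also at least 1 in size. At 20 nmol/kg, 573 genes were called higher (3.59% of those tested) and 495 were called lower (3.1%). The 1068 called genes were 6.69% of those tested. By the FDR alone 3669 genes rose (23%) and 3657 fell (22.9%). The median log2 fold change of all genes tested was -0.02, and the counts and medians of the gene lists are given to be read beside these shares and this median. Of the 1068 called genes, 654 (61.2%) had groups that did not overlap, against 22.0% of all genes tested. The share of called genes that were higher was 53.7%, and 61% in the fit of log2(TPM + 1). For the FDR alone that share was 50.1%, and 65.9% in the fit of log2(TPM + 1).

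**Figure D1:**
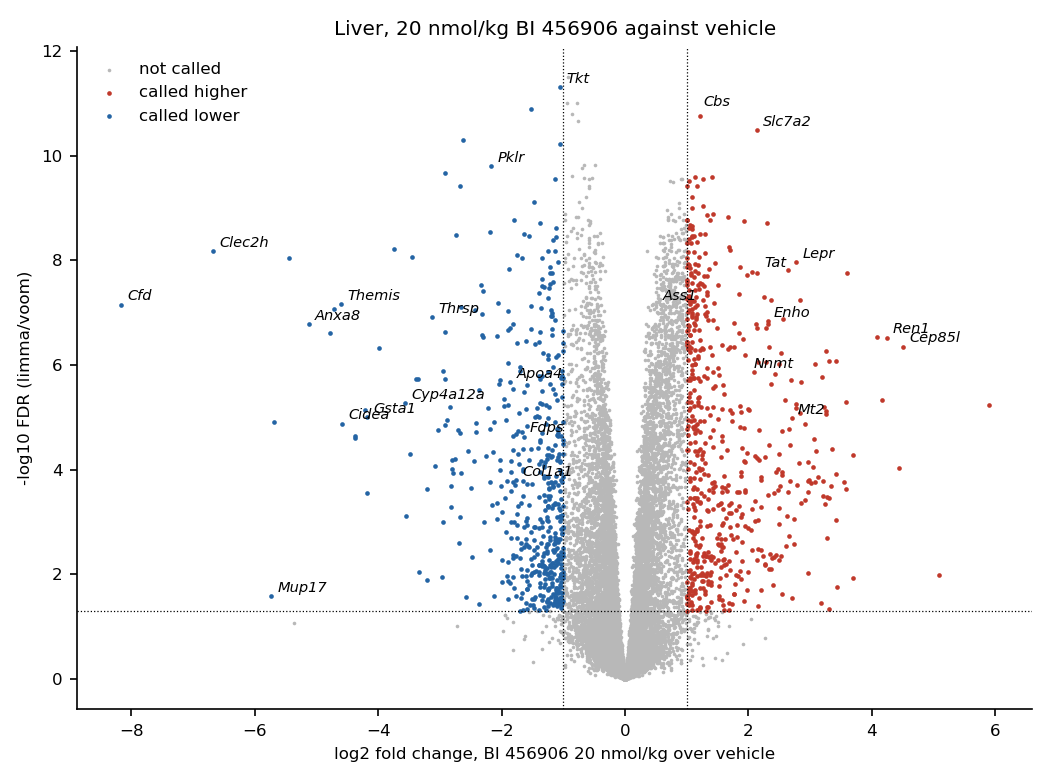
Log2 fold change of liver RNA at 20 nmol/kg BI 456906 over vehicle (x axis) against the −log10 FDR from limma/voom (y axis), with 1 point per gene tested. Red points are the 573 genes called higher and blue points the 495 called lower, dotted lines mark the thresholds, and the largest fall is that of Cfd at -8.17.

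The livers differed along axes other than single genes. On the first principal component of log2(TPM + 1), which held 31.3% of the variance, the vehicle libraries lay between 25.3 and 40.6 and those at 20 nmol/kg between -23.4 and -0.8. The 20 nmol/kg libraries were spread widely, with library 65 at -23.4 among the libraries of the 30 nmol/kg group (-29.6 to -19.2) and libraries 61, 63 and 64 among those of the 10 nmol/kg group (-5.08 to 8.1). Of the vehicle libraries, 44 and 47 lay nearest to the treated ones. Leaving out libraries 65 and 66 together gave 555 genes called higher and 375 called lower, and leaving out 44 and 47 gave 787 and 711. Transcript length moved with the treatment: from the shortest to the longest of 5 equal bins of coding genes the median log2 fold change went from -0.21 to 0.35, and the share called higher from 1.35% to 6.88%. From the lowest to the highest of 5 bins by GC share it went from 0.11 to -0.13. With both trends removed library by library, 406 of the 573 genes called higher and 388 of the 495 called lower were still called. The cause of this trend was not tested.

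**Figure D2:**
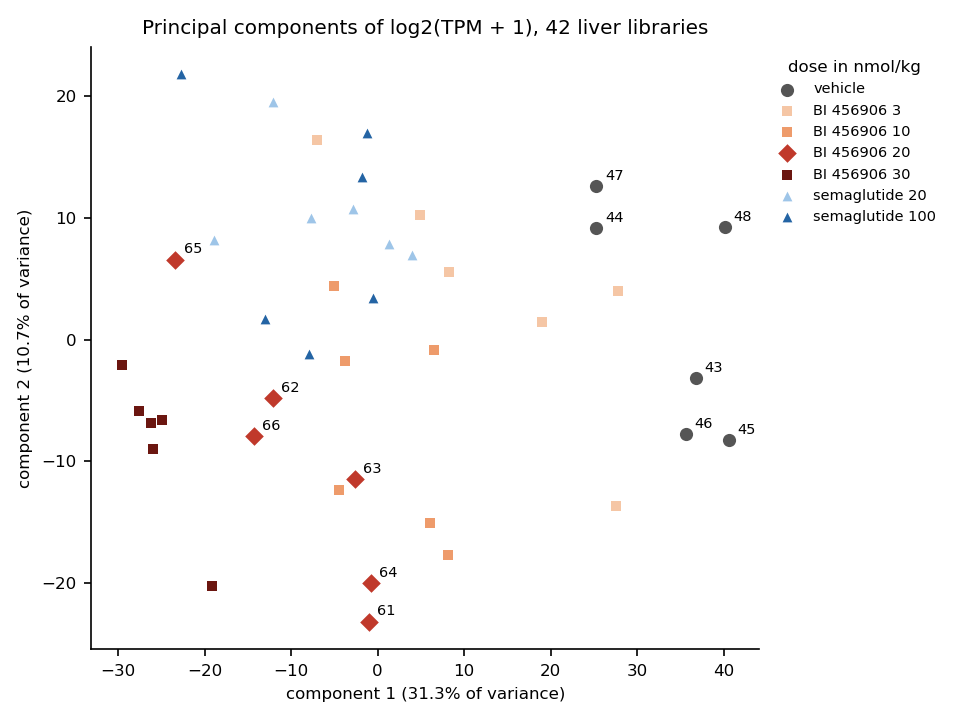
Position of the 42 liver libraries on principal components 1 (31.3% of variance) and 2 (10.7%) of log2(TPM + 1), with dose in nmol/kg by symbol. Vehicle libraries (43 to 48) and 20 nmol/kg libraries (61 to 66) are numbered, and on component 1 no vehicle library lay below 25.3 and no 20 nmol/kg library above -0.8.

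**Figure D3:**
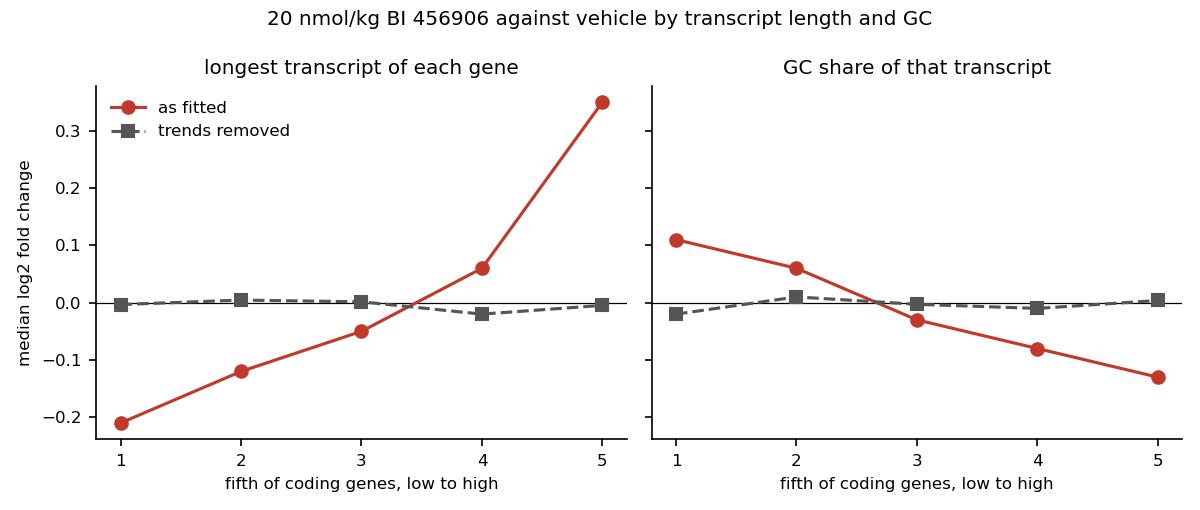
Median log2 fold change of coding genes in 5 equal bins by the length of the longest transcript (left) and by its GC share (right), for 20 nmol/kg over vehicle. Red circles are the values as fitted, which climb from -0.21 to 0.35 with length and go down from 0.11 to -0.13 with GC, and grey squares those with both trends removed.

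The defining hepatocyte markers were abundant in every library, and their summed level was 69500 to 83900 TPM with vehicle and 84200 to 99400 TPM at 20 nmol/kg. Of these 8 markers, 5 rose (Tat, Cps1, Hnf4a, Apob and Serpina1c, with Tat and Cps1 called) and Ttr fell. Alb, which encodes albumin, was at 47700 ± 4590 and 57900 ± 3210 TPM (log2 fold change 0.18, FDR 0.0982). Of 8 Kupffer cell and macrophage markers, 2 fell and none was called. Of 8 stellate cell and fibroblast markers, 5 fell, and their sum was 220 to 414 TPM with vehicle and 175 to 321 TPM at 20 nmol/kg. Of 7 endothelial markers, 3 fell (Pecam1, Cdh5 and Lyve1) and Kdr rose, with a sum of 162 to 201 TPM with vehicle and 182 to 210 TPM at 20 nmol/kg. Of 4 tested erythroid markers, 3 globin genes fell, and the sum of the erythroid markers was 810 to 1390 TPM and 676 to 1220 TPM. S100a9 of the neutrophil markers was called lower (-1.03), and Tagln of smooth muscle (-0.94) and Spp1 of cholangiocytes (-0.99) fell. With each of the 12 libraries left out in turn, Tagln, Pecam1, Lyve1 and Kdr passed the FDR 12 times, Spp1 9, Cdh5 6, S100a9 5, and the globin genes Hba-a2 11, Hba-a1 4 and Hbb-bs 4 times. Of the stellate cell and fibroblast markers that fell, Col1a1, Col3a1 and Colec11 passed 12 times, Dcn 6 and Pdgfrb 5 times. Of the macrophage markers Cd68 passed 12 and C1qa 9 times. Markers of T and NK cells, of B cells and of mesothelium did not pass the test in either direction. Exocrine pancreas markers were at the floor of 3 reads in every library for 5 of 6.

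The 12 largest rises with groups apart and at least 1 TPM were found in Cep85l, Uprt, Zfp871, Lmbrd2, Fmr1nb, Lcor, Klhl11, Zfp445, Dnaic1, Lepr, Cux2 and Mt2. Cep85l, a centrosomal protein gene, was at 0.06 to 0.37 TPM (median 0.15) with vehicle and at 4.04 to 7.7 TPM (median 5.86) at 20 nmol/kg. Its log2 fold change was 4.50 (SE 0.65, FDR 4.44e-07). The 2 groups of Cep85l did not overlap, which the choice of these 12 genes required. Of these 12 genes, 6 had transcripts in the longest of the 5 length bins, against 0 of the 12 largest falls. Lepr, which encodes the leptin receptor, was at 1.46 to 2.59 TPM (median 1.75) with vehicle and at 9.73 to 18.6 TPM (median 14.5) at 20 nmol/kg. The change of Lepr was 2.77 (SE 0.32, FDR 1.07e-08), and 2.48 with the length and GC trends removed. Mt2, a metallothionein that binds zinc, went from 107 ± 70.9 to 711 ± 475 TPM (2.70, FDR 1.03e-05). Its 20 nmol/kg libraries fell apart into 65 and 66, at 1270 and 1320 TPM, and the other 4, at 289 to 667 TPM. Fmr1nb (3.31, FDR 0.0463) was no longer called without any 1 of 10 of the 12 libraries, at FDR values from 0.0505 to 0.0908. Cux2, a transcription factor, was no longer called without vehicle library 43 (2.49, FDR 0.0539) or without vehicle libraries 44 and 47 (2.86, FDR 0.0652). It was also not called with the length and GC trends removed (2.27, FDR 0.0745).

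The 12 largest falls were taken in the same way, only from called genes with groups apart and at least 1 TPM. They were those of Cfd, Clec2h, Mup17, Anxa8, Themis, Cidea, Nat8f7, Gsta1, Smpd3, Cyp4a12a, Sdcbp2 and Ubd. Cfd, which encodes complement factor D (adipsin), was at 5.44 to 18.7 TPM (median 11.7) with vehicle and at 0 to 0.08 TPM (median 0.025) at 20 nmol/kg. It had 159 to 566 reads in the vehicle libraries and 0 to 4 reads in the treated ones (log2 fold change -8.17, SE 1.05, FDR 6.99e-08), so the fitted size depends on the pseudocount. Cfd is also a marker of adipocytes. Of the 6 adipocyte markers, Cfd and Car3 were tested, and both were called lower. The other 4 were too low to be tested: Adipoq had 2 to 18 reads with vehicle and 0 to 3 at 20 nmol/kg, Plin1 had 2 to 17 and 0 to 2, Lep had 3 to 10 and 0 to 1, and Retn had 1 to 3 and 0 to 2. The part of fat tissue in the fall of Cfd was not tested. Clec2h, a C-type lectin gene, had 71 to 129 reads with vehicle and 0 to 3 reads at 20 nmol/kg, at least 33.1-fold lower against a floor of 3 reads per library. Themis, known as a regulator of T cell signalling, went from 1.46 ± 0.482 to 0.0767 ± 0.0468 TPM (-4.60, FDR 6.94e-08), while the T and NK cell markers summed to 2.2 to 10.9 TPM with vehicle and 2.33 to 7.77 TPM at 20 nmol/kg. Ubd, a ubiquitin-like modifier, went from 13.2 ± 10.6 to 1.11 ± 0.854 TPM (-3.48, FDR 4.96e-05). Smpd3, a neutral sphingomyelinase, went from 4.24 ± 1.8 to 0.302 ± 0.204 TPM (-3.99, FDR 4.67e-07). That the groups of Cfd, Clec2h, Themis, Ubd and Smpd3 did not overlap was a condition of this choice.

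**Figure D4:**
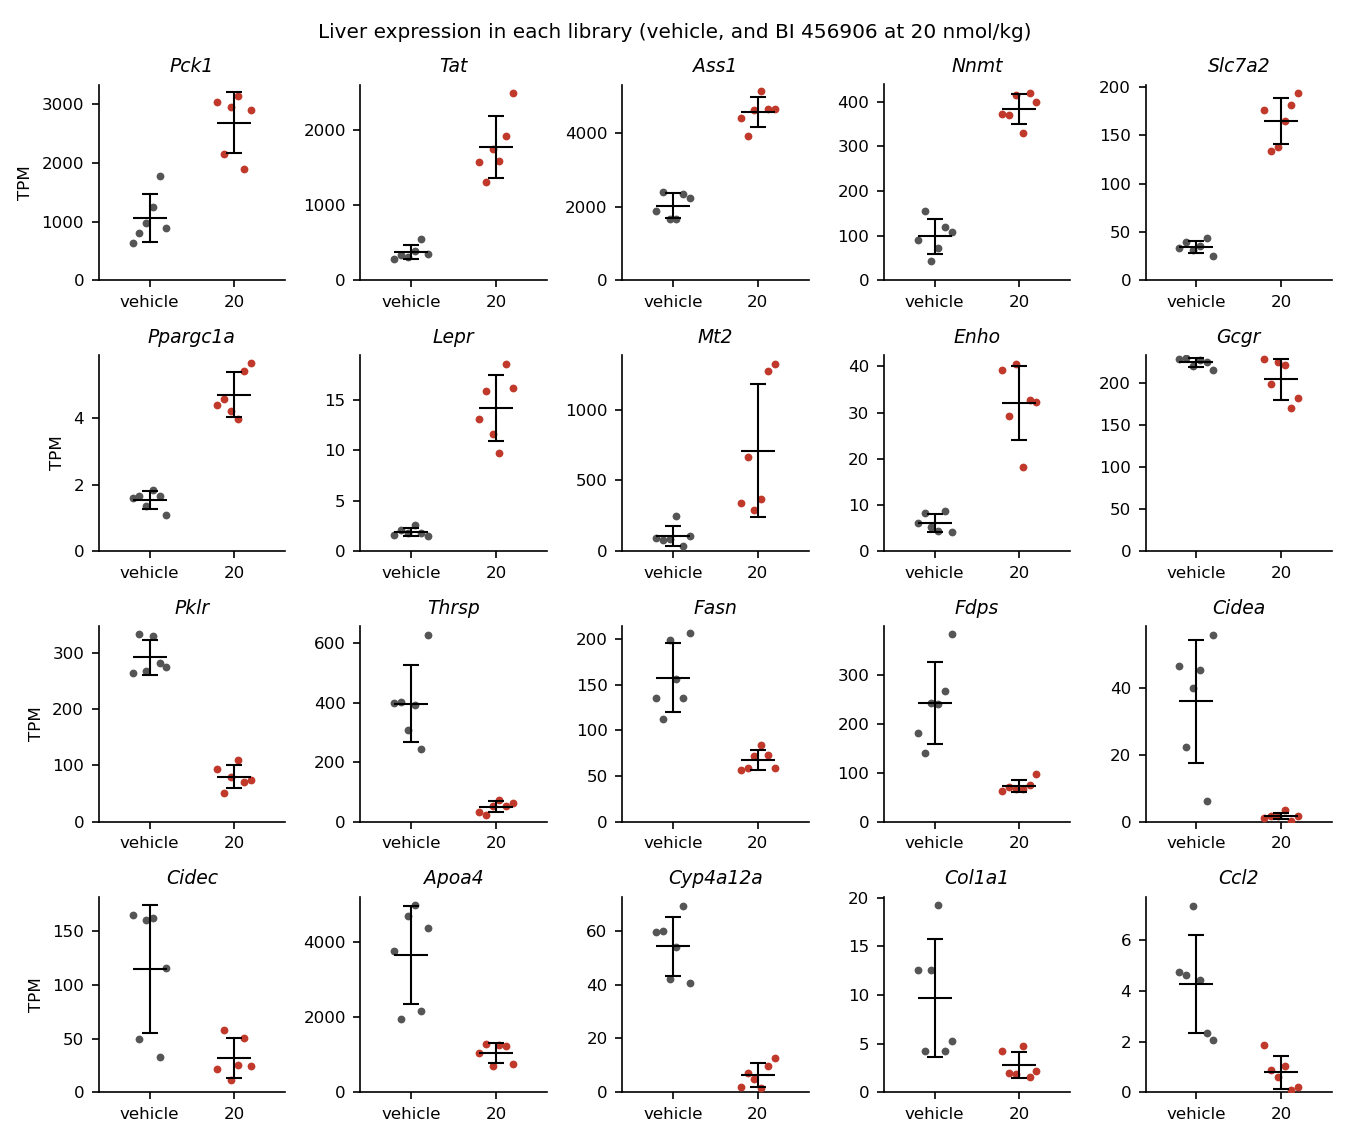
Level in TPM (y axis, from 0) of 20 named genes in the 6 vehicle libraries (grey) and the 6 libraries at 20 nmol/kg BI 456906 (red), with bars at the mean ± SD. The groups of Pck1, Tat, Ass1, Nnmt, Slc7a2, Ppargc1a, Lepr, Mt2, Enho, Pklr, Thrsp, Fasn, Fdps, Cidea, Apoa4, Cyp4a12a and Ccl2 do not overlap, and those of Gcgr, Cidec and Col1a1 do.

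Of the 30 tested genes of glucagon receptor and cAMP signalling, 14 rose, 5 fell and 11 did not pass the test, with a median of 0.17. Called higher were Gucy2c, Ppargc1a and Sik1, and none was called lower. Gcgr itself, at chr11:120530699-120538986 on GRCm38, was at 216 to 230 TPM (median 227) with vehicle and at 170 to 229 TPM (median 211) at 20 nmol/kg. The groups overlapped, the log2 fold change was -0.23 (SE 0.07, FDR 0.00683), and with the length and GC trends removed it was -0.04. In the fit of log2(TPM + 1) the change of Gcgr was -0.14 and did not pass the test (FDR 0.0882). Glp1r had 0 to 4 reads with vehicle and 0 to 5 reads at 20 nmol/kg and did not pass the filter on low values. Ppargc1a, a coactivator of gluconeogenic and mitochondrial genes, was at 1.07 to 1.84 TPM (median 1.63) with vehicle and at 3.97 to 5.68 TPM (median 4.50) at 20 nmol/kg. Each treated library was above each vehicle library (1.38, SE 0.14, FDR 1.72e-09), and with the trends removed the change was 0.97. Gucy2c, a receptor guanylate cyclase that makes cyclic GMP, went from 0.153 ± 0.0794 to 0.595 ± 0.148 TPM (1.91, FDR 3.16e-07). Sik1, a salt-inducible kinase whose transcription is known to follow CREB, went from 6.43 ± 1.8 to 14.7 ± 5.71 TPM (1.04, FDR 0.00143). Sik1 lay at the threshold, with 0.93 without library 64, 0.93 without 66, 0.98 without vehicle library 43 and 0.99 without 44. Among examples from the list, Creb1 rose by 0.76 (FDR 1.3e-08, 0.20 with the trends removed), Adcy9, an adenylyl cyclase, by 0.72 (FDR 0.0011) and Pde4d, a cAMP phosphodiesterase, by 0.54 (FDR 0.00491). With the trends removed the list had 12 genes higher and 8 lower.

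The gluconeogenesis list had 5 of 19 genes higher and 9 lower, with a median of -0.22. Pck1 and Got1 were called higher. Pck1, which encodes the cytosolic phosphoenolpyruvate carboxykinase that commits carbon to gluconeogenesis, lies at chr2:173153048-173159273. It was at 632 to 1780 TPM (median 933) with vehicle and at 1900 to 3150 TPM (median 2940) at 20 nmol/kg. The groups did not overlap, and the log2 fold change was 1.29 (SE 0.17, FDR 7.55e-08). Got1, the cytosolic aspartate aminotransferase, was at 110 to 188 TPM (median 150) with vehicle and at 291 to 596 TPM (median 400) at 20 nmol/kg (1.34, SE 0.28, FDR 0.000127), also without overlap. The other steps did not follow Pck1. G6pc, the glucose-6-phosphatase that releases glucose, was at 303 ± 48.8 and 360 ± 105 TPM (0.12, SE 0.17, FDR 0.585). Pcx, the pyruvate carboxylase at the start of the pathway, went from 341 ± 34.9 to 244 ± 16.2 TPM and fell by 0.58 on the log2 scale (FDR 1.2e-07). Ldha, a lactate dehydrogenase, rose by 0.61 (FDR 3.26e-06). In the fit of log2(TPM + 1) the list had 6 genes higher and 4 lower, and with the trends removed 4 and 3.

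The 250 bases before the start of 4 genes, Pck1, Ppargc1a, Got1 and, from the ATF4 list described further on, Asns, are printed to show where the core of the cAMP response element and an ATF4 element lie. They are from RefSeq on GRCm38.p6, written 5′ to 3′ on the gene's own strand, for the genes called higher in the cAMP, gluconeogenesis and ATF4 lists that had an entry (4 of 6). Those called lower in the ATF4 list, Trib3 and Atf3, are not shown. Capitals mark the core of the cAMP response element (TGACG, or CGTCA on the other strand) and the ATF4 element (TGATGNAA, read on both strands).
Pck1, chr2:173152823-173153072, plus strand: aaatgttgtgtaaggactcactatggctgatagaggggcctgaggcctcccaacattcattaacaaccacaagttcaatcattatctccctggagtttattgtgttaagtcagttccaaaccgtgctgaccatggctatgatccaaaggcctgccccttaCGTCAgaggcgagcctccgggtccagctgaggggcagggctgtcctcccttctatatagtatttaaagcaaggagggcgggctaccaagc
Ppargc1a, chr5:51567726-51567975, minus strand: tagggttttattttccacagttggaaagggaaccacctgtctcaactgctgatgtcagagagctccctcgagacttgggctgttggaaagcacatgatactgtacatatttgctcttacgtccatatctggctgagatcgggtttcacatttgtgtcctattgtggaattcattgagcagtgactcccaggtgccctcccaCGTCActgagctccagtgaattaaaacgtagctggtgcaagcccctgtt
Got1, chr19:43524606-43524855, minus strand: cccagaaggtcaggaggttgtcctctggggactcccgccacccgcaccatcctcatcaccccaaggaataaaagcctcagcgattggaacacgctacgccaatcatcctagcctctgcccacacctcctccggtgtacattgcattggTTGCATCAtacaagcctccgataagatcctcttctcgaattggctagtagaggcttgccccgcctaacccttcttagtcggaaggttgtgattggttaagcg
Asns, chr6:7693210-7693459, minus strand: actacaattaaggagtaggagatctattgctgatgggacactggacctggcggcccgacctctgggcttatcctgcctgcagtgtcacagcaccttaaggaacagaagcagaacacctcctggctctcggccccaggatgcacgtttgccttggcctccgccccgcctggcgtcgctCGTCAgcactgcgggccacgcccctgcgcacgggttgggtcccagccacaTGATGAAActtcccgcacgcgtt
Counted back from the start, the core began at -90 in Pck1, -49 in Ppargc1a and -73 in Asns, and the ATF4 element at -102 in Got1 and -23 in Asns. Over all genes the core was found in 22.6% of the 350 promoters of genes called higher, in 16.2% of the 425 of genes called lower and in 24.9% of the 14563 of genes tested. The full cAMP response element (TGACGTCA), which holds the core, was found in 3.14%, 1.41% and 2.4%. The ATF4 element was found in 4.86%, 7.29% and 2.26%, the STAT5 element (TTCNNNGAA) in 6.29%, 4.0% and 6.08%, and the sterol element (TCACNCCAC) in 1.43%, 0.471% and 1.05%. Of the 87 named called genes with a promoter entry, 18 held the core, 7 the ATF4 element and 0 the full cAMP response element. A match is a run of letters and not a measured binding site.

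Glycolysis and glucose uptake moved the other way from Pck1. Of 25 tested genes, 17 fell and the other 8 did not pass the test, with a median of -0.39. Pklr, the liver pyruvate kinase at chr3:89136142-89146784, was the only member called. It was at 263 to 333 TPM (median 278) with vehicle and at 51.5 to 110 TPM (median 76.2) at 20 nmol/kg. The groups were far apart (log2 fold change -2.17, SE 0.20, FDR 1.55e-10). Khk, the fructokinase, fell by 0.79 on the log2 scale (FDR 3.13e-06), and Slc2a2, the glucose transporter of hepatocytes, fell by 0.53 (FDR 0.000787). Pdk1, an inhibitor of pyruvate dehydrogenase, fell by 0.97 (FDR 8.95e-09), and by 1.01 or 1.02 without library 63, 64, 43 or 45 in turn, which brought it past the threshold. Fits of log2(TPM + 1) and with the trends removed gave 15 and 12 genes lower.

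Glycogen metabolism had 8 of 19 genes lower and 1 higher, with none called. Ugp2, which makes UDP-glucose, fell by 0.93 on the log2 scale (FDR 1.5e-06). Gbe1, the branching enzyme, went from 93.8 ± 4.67 to 49.4 ± 7.92 TPM (-0.98, FDR 1.72e-09), and to -1.02 without library 63 and -1.01 without 64. Pygl, the liver glycogen phosphorylase, fell by 0.55 (FDR 0.000155) and Gys2, the liver glycogen synthase, by 0.38 (FDR 0.000982), so genes of both directions of glycogen turnover were lower. Of the 5 alpha-arrestins with Txnip, Arrdc3 alone was called. It went from 22.6 ± 3.63 to 10.7 ± 5.06 TPM (-1.52, FDR 4.02e-05).

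The urea cycle and ammonia list had 7 of 16 genes higher and 5 lower, with a median of 0.22. Ass1, the argininosuccinate synthetase at chr2:31470207-31520672, was at 1670 to 2400 TPM (median 2070) with vehicle and at 3930 to 5160 TPM (median 4650) at 20 nmol/kg. The groups did not overlap (1.08, SE 0.14, FDR 1e-07), and Ass1 was among the 5 most abundant called genes. Cps1, the mitochondrial carbamoyl-phosphate synthetase, was at 331 to 623 TPM (median 450) with vehicle and at 863 to 1390 TPM (median 933) at 20 nmol/kg (1.01, SE 0.19, FDR 4.11e-05). Cps1 was at 0.91 without library 65 or vehicle library 45, at 0.99 without 66 and at 0.98 without 46, and at 0.76 with the trends removed. Arg1, the arginase of the last step, rose by 0.56 (FDR 0.0024) and Gls2, the liver glutaminase that frees ammonia, by 0.90 (FDR 1.4e-07). Rhbg, Glul and Ddah1 were lower. Rhbg, an ammonium transporter, went from 9.87 ± 2.18 to 2.6 ± 0.994 TPM (-2.30, FDR 3.78e-08). Glul, the glutamine synthetase of pericentral hepatocytes, went from 743 ± 81.3 to 421 ± 51.8 TPM (-0.94, FDR 3.39e-09). Ddah1, which breaks down methylated arginine, fell by 1.08 (FDR 1.98e-05), and by 0.94 without library 65.

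Amino acid breakdown was divided, with 17 of 53 genes higher and 16 lower and a median of -0.06 (0.06 in the fit of log2(TPM + 1)). Tat, the tyrosine aminotransferase at chr8:109990437-109999803, was at 285 to 548 TPM (median 345) with vehicle and at 1300 to 2490 TPM (median 1670) at 20 nmol/kg. The lowest treated library was far above the highest vehicle library (2.13, SE 0.25, FDR 1.74e-08). Sds, the serine dehydratase, was at 117 to 179 TPM (median 145) with vehicle and at 243 to 435 TPM (median 347) at 20 nmol/kg (1.10, SE 0.24, FDR 0.000233). Tat, Sds and Got1 were the members called, and none was called lower. Without libraries 65 and 66 Sds was at 0.94 (FDR 0.00507) and the list had 2 members called higher. Of 29 amino acid transporters, 10 rose and 4 fell, and 4 were called higher. Slc7a2, a carrier of cationic amino acids, was at 25.5 to 43.5 TPM (median 34.2) with vehicle and at 134 to 194 TPM (median 171) at 20 nmol/kg. No libraries of the 2 groups came near each other (2.13, SE 0.18, FDR 3.22e-11). Slc38a2, a sodium-coupled carrier of neutral amino acids, went from 17.1 ± 3.25 to 59.2 ± 15.6 TPM (1.67, FDR 1.45e-09). Slc3a1, a subunit of a cystine and dibasic amino acid carrier, went from 19.4 ± 5.48 to 56.4 ± 12.4 TPM (1.46, FDR 1.14e-08). Slc25a22, a mitochondrial glutamate carrier, went from 148 ± 11.4 to 384 ± 78.1 TPM (1.19, FDR 4.32e-06). The transporters had a median of 0.14, and of -0.04 with the trends removed.

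In the methionine cycle and one-carbon list, 10 of 23 genes rose and 6 fell. Nnmt, the nicotinamide N-methyltransferase, uses S-adenosylmethionine as its methyl donor and lies at chr9:48591877-48605153. It was at 43.9 to 155 TPM (median 99.3) with vehicle and at 331 to 420 TPM (median 386) at 20 nmol/kg. Both groups were apart (1.95, SE 0.29, FDR 6.42e-07). Cbs, which directs homocysteine to cysteine, was at 123 to 162 TPM (median 146) with vehicle and at 303 to 379 TPM (median 367) at 20 nmol/kg (1.21, SE 0.10, FDR 1.75e-11), and at 0.93 with the trends removed. Mat1a, which makes S-adenosylmethionine, went from 2010 ± 199 to 3660 ± 239 TPM and rose by 0.77 (FDR 3.37e-06). Bhmt, which remethylates homocysteine with betaine, went the other way, from 4120 ± 899 to 2330 ± 572 TPM (-0.88, FDR 0.0114). Mtr, the methionine synthase, was called at 1.04 (FDR 7.31e-06) but was at 0.95 without vehicle library 48 and at 0.54 with the trends removed, which left 1 member called higher. In NAD and nicotinamide metabolism, 3 of 18 genes rose and 8 fell, and Nnmt and Acmsd, which diverts tryptophan breakdown from NAD synthesis, were called higher (Acmsd 1.43, FDR 3.71e-05).

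The ATF4 response and serine synthesis list did not move as a block, with 4 of 27 genes higher, 4 lower and 19 not passing. Asns, the asparagine synthetase, went from 0.372 ± 0.328 to 2.01 ± 1.61 TPM (2.20, FDR 0.0196) with overlapping groups, and without library 65 it was no longer called (1.83, FDR 0.0546). Trib3, a pseudokinase that ATF4 is known to induce, went from 5.89 ± 1.33 to 2.7 ± 0.537 TPM (-1.21, FDR 1.73e-08), and was at -0.98 with the trends removed. Atf3 was called lower at -1.01 (FDR 0.0319) and lost the call in several settings. Among them were edgeR on the recovered reads (-0.99, FDR 0.0377) and leaving out library 63 (-0.82, FDR 0.0914). With the trends removed 9 members rose and 3 fell, and 2 were called higher and 0 lower. Endoplasmic reticulum chaperones rose more broadly, with 13 of 26 higher, 3 lower and a median of 0.39, although none was called. Hspa5, the chaperone BiP, went from 269 ± 48.2 to 446 ± 72.2 TPM (0.60, FDR 0.00133). Hyou1 rose by 0.84 (FDR 0.000227), Herpud1 by 0.68 (FDR 8.62e-05) and Edem1, which takes part in the degradation of misfolded glycoproteins, by 0.65 (FDR 2.29e-07).

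In fatty acid and triglyceride synthesis, 12 of 30 genes fell and 4 rose, with a median of -0.27. Thrsp, a lipogenic protein of the cytosol, was at 244 to 628 TPM (median 397) with vehicle and at 23 to 73.6 TPM (median 53.6) at 20 nmol/kg. The groups did not overlap (-3.13, SE 0.42, FDR 1.19e-07). Mogat1, a monoacylglycerol acyltransferase, went from 10.5 ± 3.42 to 2.5 ± 1.19 TPM (-2.06, FDR 6.6e-08). Acss2, which activates acetate, went from 84.3 ± 25.7 to 36 ± 9.2 TPM (-1.34, FDR 1.97e-05), and Aacs, which activates acetoacetate, from 30.2 ± 8.79 to 12.6 ± 3.77 TPM (-1.35, FDR 5.43e-06). Fasn, the fatty acid synthase, was at 113 to 207 TPM (median 146) with vehicle and at 56.6 to 83.8 TPM (median 65.7) at 20 nmol/kg. The TPM of Fasn did not overlap between the groups. The size of its fall depended on the table and on the trends. It was -0.76 (FDR 0.000552) on the reads, -1.20 on log2(TPM + 1) and -1.23 on the reads with the trends removed. Srebf1, whose product drives lipogenic genes, fell by 0.83 (FDR 0.00176), and Scd1, the stearoyl-CoA desaturase, was at 1600 ± 285 and 1300 ± 526 TPM (-0.50, FDR 0.238). Lpin1, a phosphatidate phosphatase that also acts as a coactivator, was the member called higher (1.72, FDR 0.0018). Lpin1 was at 240 and 179 TPM in libraries 65 and 66, at 49.5 to 60.7 TPM in the other 4 treated libraries and at 19.4 to 30.6 TPM with vehicle. Without libraries 65 and 66 no member of the list was called higher.

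The lipid droplet proteins and lipases had 20 of 27 genes lower, 1 higher and 7 called lower, with a median of -0.44. Cidea, a lipid droplet fusion protein that is typical of brown fat and of fatty liver, was at 6.18 to 55.6 TPM (median 42.5) with vehicle and at 0.31 to 3.34 TPM (median 1.68) at 20 nmol/kg. The lowest vehicle library, 47, was above the highest treated library (-4.59, SE 0.81, FDR 1.31e-05). Cidec, of the same family, was at 33 to 165 TPM (median 138) and at 11.5 to 57.9 TPM (median 24.9), so its groups overlapped (-1.92, SE 0.49, FDR 0.00155). The vehicle libraries of Cidec fell apart into 44 and 47, at 49.9 and 33 TPM, and the other 4, at 116 to 165 TPM. Pparg, a nuclear receptor that is high in fatty liver, went from 16.1 ± 3.97 to 5.52 ± 2.8 TPM (-1.70, FDR 1.32e-06). Ces1g, a carboxylesterase, went from 193 ± 17.9 to 65.6 ± 11.8 TPM (-1.67, FDR 9.12e-09). Plin2, the main droplet coat protein of hepatocytes, was at 792 ± 75.7 and 930 ± 280 TPM (0.12, FDR 0.632). Outside the list, Car3, a carbonic anhydrase abundant in fat and in male liver, went from 2020 ± 343 to 657 ± 264 TPM (-1.82, FDR 2.89e-06). Cd36, a fatty acid transporter, fell by 1.14 (FDR 0.00165), and by 0.87 without library 65.

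Fatty acid oxidation, ketogenesis and PPARalpha targets did not shift in 1 direction: 8 of 44 genes rose and 12 fell, with a median of -0.04 (0.07 in the fit of log2(TPM + 1), with 12 higher and 9 lower). The 5 members called were all higher. Ppara, the nuclear receptor of the fasting response, was at 30.4 to 105 TPM (median 46.2) with vehicle and at 111 to 137 TPM (median 117) at 20 nmol/kg. Its groups were apart by a small margin (1.51, SE 0.26, FDR 1.06e-05). Cyp4a14, an omega-hydroxylase, went from 858 ± 243 to 2140 ± 800 TPM (1.20, FDR 9.26e-05), and Ehhadh, the peroxisomal bifunctional enzyme, from 299 ± 62 to 784 ± 430 TPM (1.14, FDR 0.00232). Ehhadh was at 0.92 without library 62, and Cyp4a14 at 0.98 without libraries 65 and 66. Cpt1a, which admits fatty acids to mitochondria, was at 266 ± 22.9 and 290 ± 34.7 TPM (0.02, SE 0.09, FDR 0.856). Without library 62 the list had 3 members called higher and 16 that fell, and without libraries 65 and 66 it had 2 called higher.

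Cholesterol synthesis and uptake had 14 of 31 genes lower and 3 higher, with a median of -0.30. Fdps, the farnesyl diphosphate synthase, was at 140 to 383 TPM (median 242) with vehicle and at 62.4 to 96.4 TPM (median 68.3) at 20 nmol/kg. Both groups were apart (-1.64, SE 0.30, FDR 2.33e-05). Nsdhl, a sterol dehydrogenase, went from 37.6 ± 11.5 to 15.9 ± 2.54 TPM (-1.31, FDR 0.000134), Acat2, which joins acetyl-CoA units, from 58.9 ± 11.4 to 27.4 ± 4.02 TPM (-1.20, FDR 8.69e-08), and Mvd, the mevalonate decarboxylase, from 7.55 ± 3.1 to 3.27 ± 0.654 TPM (-1.21, FDR 0.00195). Sqle, the squalene epoxidase, was at 14.1 ± 4.78 and 12 ± 4.63 TPM (-0.34, FDR 0.509). Without vehicle library 48, 9 members fell in place of 14. The member that was called higher was Abca1, the cholesterol exporter, at 1.05 (FDR 2.63e-07), and at 0.48 with the trends removed.

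Bile acid synthesis and transport had 7 of 30 genes higher and 8 lower, with none called. Cyp7a1, the rate-limiting enzyme of bile acid synthesis, was at 27.2 to 81.6 TPM (median 50.0) with vehicle and at 24.5 to 104 TPM (median 50.1) at 20 nmol/kg. The groups overlapped (-0.27, SE 0.35, FDR 0.557). Cyp8b1, which makes cholic acid, fell by 0.66 (FDR 0.000257), from 665 ± 76.2 to 455 ± 64.7 TPM. Nr5a2, a nuclear receptor of bile acid synthesis genes, rose by 0.62 (FDR 3.21e-08). Among 31 apolipoproteins and lipoprotein genes, 9 rose and 9 fell. Apoa4, an apolipoprotein that is high in fatty liver, was at 1970 to 5000 TPM (median 4070) with vehicle and at 699 to 1290 TPM (median 1140) at 20 nmol/kg (-1.86, SE 0.29, FDR 2.09e-06). Every vehicle library of Apoa4 was above every treated library. Apoe went from 53600 ± 2860 to 38800 ± 4750 TPM (-0.58, FDR 4.59e-09), and Lpl, the lipoprotein lipase, from 7.8 ± 4.03 to 3.4 ± 0.99 TPM (-1.23, FDR 0.000356).

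**Figure D5:**
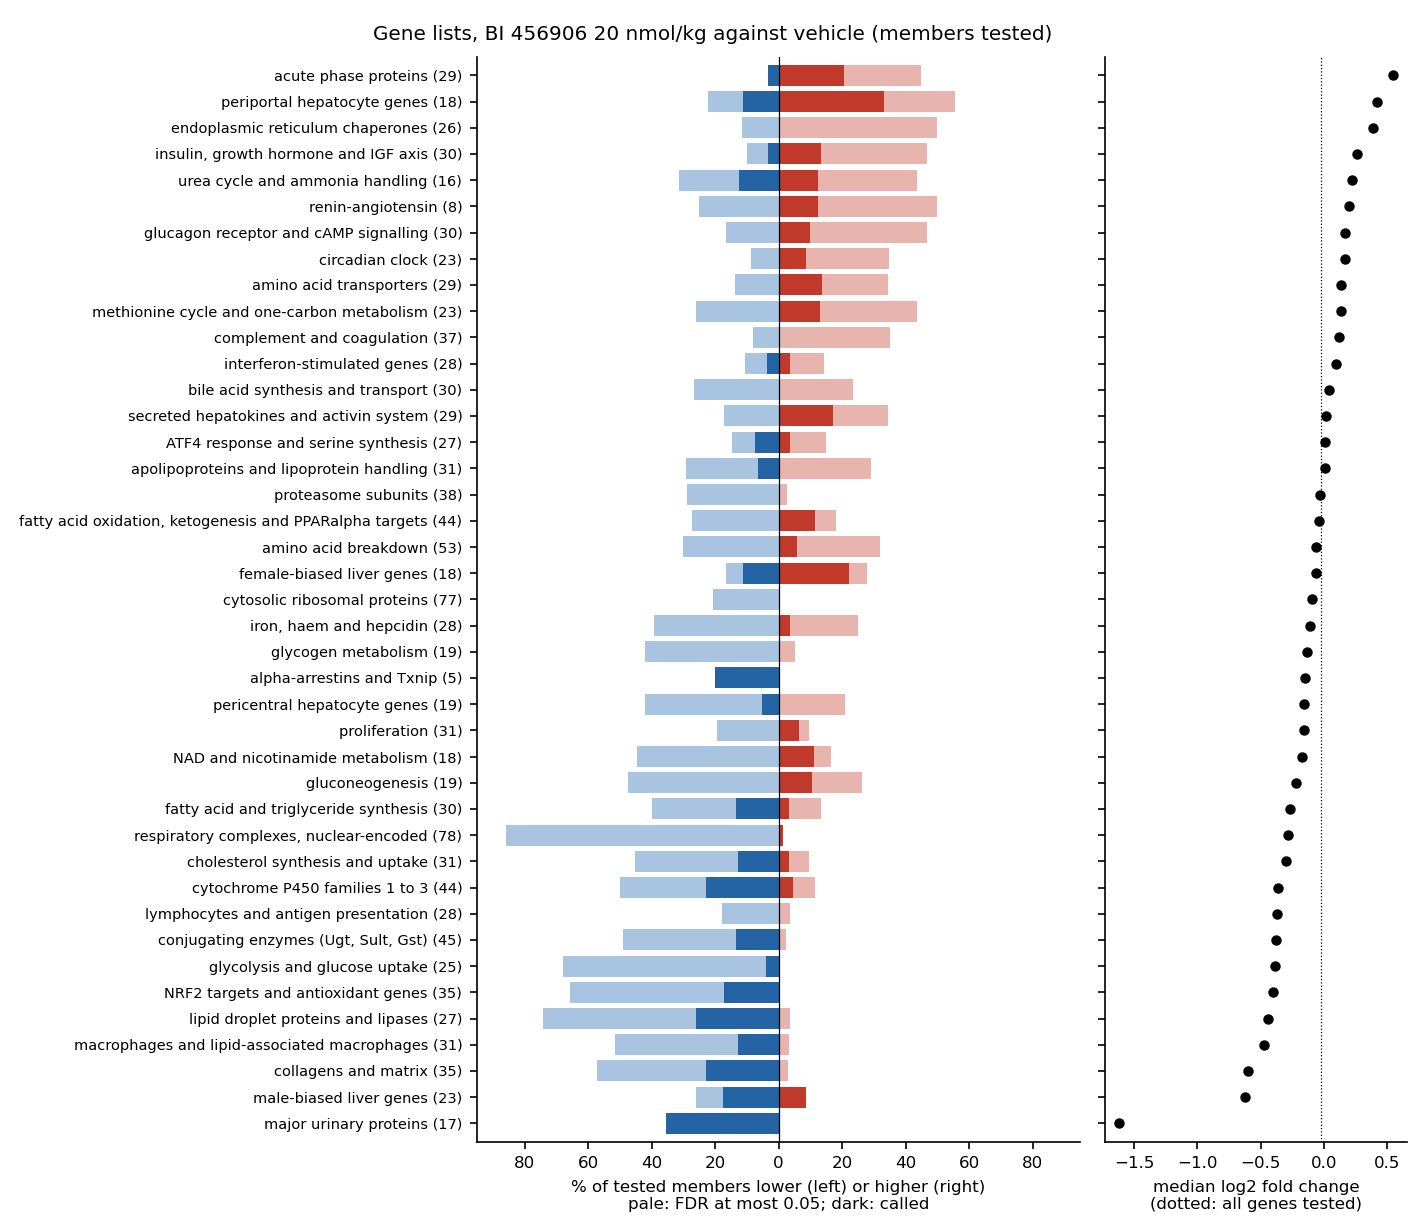
Share of the tested members of each of 41 gene lists (number tested in brackets) that fell (left) or rose (right) at 20 nmol/kg BI 456906 against vehicle, with pale bars for an FDR of at most 0.05 and dark bars for called genes, and at right each list's median log2 fold change beside that of all genes (dotted, -0.02). Medians run from -1.62 for the major urinary proteins to 0.55 for the acute phase proteins.

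Among secreted hepatokines and activin system genes, 10 of 29 rose and 5 fell, and 5 were called higher. Enho, which encodes adropin, was at 4.15 to 8.66 TPM (median 5.58) with vehicle and at 18.1 to 40.6 TPM (median 32.6) at 20 nmol/kg. The groups did not overlap (2.31, SE 0.31, FDR 1.44e-07). Fgl1, a fibrinogen-like hepatokine, was at 220 to 318 TPM (median 233) with vehicle and at 537 to 1190 TPM (median 837) at 20 nmol/kg (1.68, SE 0.19, FDR 5.48e-09), again without overlap. Fgf21, the fasting hormone of the liver, went from 23.5 ± 6.43 to 45.1 ± 15.3 TPM with overlapping groups (0.80, SE 0.24, FDR 0.0049). Without library 63, its lowest, the change of Fgf21 was 1.02 (FDR 0.000217), which passed the threshold. Inhbe, an activin subunit, was at 50.8 ± 3.46 and 55.5 ± 13.3 TPM (-0.03, FDR 0.901). Hamp, which encodes hepcidin, the hormone that limits iron export, was at 879 to 3560 TPM (median 2280) with vehicle and at 3810 to 9380 TPM (median 5470) at 20 nmol/kg (1.39, SE 0.40, FDR 0.00448). The groups of Hamp did not overlap, and it was the member of 28 iron and haem genes called, with 7 higher and 11 lower.

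In the insulin, growth hormone and IGF axis, 14 of 30 genes rose and 3 fell, with a median of 0.26, but 6 rose and 5 fell once the length and GC trends were removed. Igfbp1, an IGF-binding protein raised in fasting, went from 132 ± 45.2 to 316 ± 126 TPM (1.15, FDR 0.00274) and was at 0.98 without vehicle library 43. Igfbp2 went from 295 ± 85.5 to 646 ± 119 TPM (1.02, FDR 5.19e-06), and was at 0.94 without library 65, 0.97 without vehicle library 45 and 0.91 without 46. Igf1 went from 323 ± 32.1 to 433 ± 50.4 TPM (0.37, FDR 0.0224), and this direction turned to -0.11 with the trends removed. Insr, the insulin receptor, rose by 0.76 (FDR 1.65e-07), and was at 0.21 with the trends removed, and Irs2, its substrate, rose by 0.68 (FDR 0.00541). Egfr, the EGF receptor, was at 12.9 to 40.2 TPM (median 19.7) with vehicle and at 51.9 to 118 TPM (median 69.7) at 20 nmol/kg (1.74, SE 0.30, FDR 1.15e-05), without overlap. Ghr, the growth hormone receptor, was at 236 ± 26.2 and 229 ± 20 TPM (-0.16, FDR 0.163). Cish, a target of growth hormone signalling, fell by 1.24 (FDR 0.00992), and by 0.99 without library 63.

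Of 23 circadian clock genes, 8 rose and 2 fell, with a median of 0.17. Noct, a rhythmic deadenylase-like phosphatase, was at 4.70 to 6.54 TPM (median 5.90) with vehicle and at 15.9 to 27.8 TPM (median 23.1) at 20 nmol/kg (1.97, SE 0.24, FDR 1.92e-08). Per1, a clock repressor that cAMP is known to induce, was at 5.52 to 16.4 TPM (median 7.79) with vehicle and at 19.4 to 33.8 TPM (median 25.2) at 20 nmol/kg (1.44, SE 0.18, FDR 6.63e-08). Neither Noct nor Per1 overlapped between groups. Arntl, the activator BMAL1, rose by 0.38 (FDR 1e-05), Clock by 0.93 (FDR 1.73e-08, 0.31 with the trends removed), and Dbp, an output gene, fell by 0.95 (FDR 1.13e-05). Times of day at which the livers were taken were not used here. In the renin-angiotensin list, Ren1, which encodes renin, had 0 to 2 reads with vehicle and 10 to 30 reads at 20 nmol/kg, at least 6.2-fold higher against a floor of 3 reads per library. Ren1 was the member of 8 called.

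The acute phase proteins had 13 of 29 genes higher and 1 lower, with a median of 0.55, and 6 were called higher and 1 lower. Lrg1, a leucine-rich glycoprotein, was at 403 to 508 TPM (median 463) with vehicle and at 841 to 1790 TPM (median 1050) at 20 nmol/kg. Both groups were apart (1.18, SE 0.20, FDR 5.84e-06). Fga, a fibrinogen chain, went from 2240 ± 230 to 5010 ± 1150 TPM (1.01, FDR 3.66e-07), and was at 0.95 without library 62 or 63, 0.96 without 65 and 0.99 without vehicle library 46. Itih4 went from 923 ± 103 to 2100 ± 546 TPM (1.12, FDR 2.07e-08). Mt1, the other major metallothionein of liver, went from 292 ± 105 to 924 ± 487 TPM (1.57, FDR 0.000213). Saa1, the acute phase protein that inflammation raises most, did not pass the test (1.46, FDR 0.0735). Saa1 was at 6670 TPM in library 63 and 2070 TPM in library 62, and at 326 to 706 TPM in the other 4 treated libraries, against 188 to 422 TPM with vehicle. Saa1 was called without library 64 (1.79, FDR 0.035) and without 66 (1.74, FDR 0.0434), and by edgeR on the recovered reads (2.36, FDR 0.0071). Orm3, an orosomucoid, moved the other way, from 8.42 ± 1.53 to 1.1 ± 0.663 TPM (-3.35, FDR 1.88e-06). Of 37 complement and coagulation genes, 13 rose and 3 fell. C3 went from 1580 ± 167 to 3240 ± 346 TPM with a change of 1.00 (FDR 3.78e-10) that lay just under the threshold, and it was called without library 61 (1.02), 64 (1.05), 65 (1.04), 44 (1.03), 46 (1.01) or 47 (1.08).

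NRF2 targets and antioxidant genes fell as a list, with 23 of 35 lower and a median of -0.40. Called lower were 6 members, and 2 with the length and GC trends removed. Gsta1, a glutathione transferase, was at 8.54 to 88.0 TPM (median 41.3) with vehicle and at 0.88 to 4.09 TPM (median 2.02) at 20 nmol/kg (-4.18, SE 0.72, FDR 1e-05). The groups of Gsta1 did not overlap, which its choice among the largest falls required. Its near-identical paralogue Gsta2 can share its reads. Gstm3 went from 45.5 ± 22.1 to 11.7 ± 4.78 TPM (-1.96, FDR 4.46e-06). Gpx4, which reduces lipid peroxides, went from 786 ± 192 to 439 ± 46.9 TPM (-0.89, FDR 2.58e-07). Tkt, the transketolase of the pentose phosphate pathway, was at 67.2 to 88.7 TPM (median 78.2) with vehicle and at 35.3 to 47.5 TPM (median 41.5) at 20 nmol/kg (-1.05, SE 0.08, FDR 4.8e-12), and was at -0.99 without vehicle library 48. Among conjugating enzymes of the Ugt, Sult and Gst families, 22 of 45 fell and 1 rose. Sult1c2 went from 4.74 ± 0.705 to 2.21 ± 0.688 TPM (-1.26, FDR 0.000804) and Sult2a7 from 2.54 ± 0.643 to 1.1 ± 0.664 TPM (-1.39, FDR 7.63e-05).

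Of 44 cytochrome P450 genes of families 1 to 3, 22 fell and 5 rose, with 10 called lower and 2 called higher. Cyp3a11, the main drug-metabolizing P450 of mouse liver, was at 627 to 1520 TPM (median 1170) with vehicle and at 134 to 593 TPM (median 526) at 20 nmol/kg. The groups did not overlap (-1.56, SE 0.36, FDR 0.000466). Cyp2f2, a periportal P450, was at 532 to 631 TPM (median 602) with vehicle and at 179 to 301 TPM (median 260) at 20 nmol/kg (-1.35, SE 0.16, FDR 2.28e-08). Cyp2b10, the classical target of the receptor CAR, was called at -2.13 (FDR 0.0259), but not without library 61 (-1.85, FDR 0.0588) or 62 (-1.86, FDR 0.061).

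The sex-biased genes were variable within both groups. Among 23 male-biased liver genes, 2 rose and 6 fell, with a median of -0.62, and among 18 female-biased genes 5 rose and 3 fell, with a median of -0.06. Without vehicle libraries 44 and 47, 3 male-biased genes rose and 3 fell with a median of 0.23, and 4 female-biased genes rose and 5 fell. Without library 47 alone, 5 female-biased genes rose and 5 fell, and the number called lower was 4 without 44 or without 47, in place of 2. Without libraries 65 and 66 the female-biased median was 0.37, so the direction of both lists rested on these libraries. Cyp4a12a, a male-specific P450, was at 40.7 to 69.2 TPM (median 56.7) with vehicle and at 1.73 to 12.8 TPM (median 6.15) at 20 nmol/kg. The groups were far apart (-3.57, SE 0.59, FDR 5.33e-06). Cyp2a4, a female-biased P450 with the near-identical paralogue Cyp2a5, was at 2.05 to 14.5 TPM with vehicle and at 31.6 to 155 TPM in 5 of the 6 treated libraries, with 3.35 TPM in library 65 (2.96, SE 0.94, FDR 0.00948). Without library 65 its change was 3.66. Cyp17a1, a female-biased steroid hydroxylase, was at 22.7 to 54.8 TPM (median 30.6) with vehicle and at 80.8 to 176 TPM (median 117) at 20 nmol/kg (1.70, SE 0.29, FDR 7.21e-06), and its groups did not overlap. Selenbp2, a male-biased gene, went from 18.6 to 84 TPM with vehicle to 6.68 to 10.3 TPM in the same 5 libraries, with 75 TPM in library 65 (-2.0, SE 0.67, FDR 0.014), and it was not called by edgeR on the recovered reads (-1.41, FDR 0.0872). Serpina1e, of the alpha-1-antitrypsin cluster, was at 7670 TPM in library 65 and at 329 to 2290 TPM in the other 5, and its call was lost without that library (1.91, FDR 0.0617). Library 65 thus stood apart from the other 5 treated livers in Cyp2a4, Selenbp2 and Serpina1e. The major urinary proteins, the pheromone carriers of male mice, had 6 of 17 genes lower, with a median of -1.62. Mup20, among the 5 most abundant called genes, was at 3310 to 8180 TPM (median 5940) with vehicle and at 1340 to 4070 TPM (median 2450) at 20 nmol/kg, with overlap (-1.32, SE 0.40, FDR 0.00681). Mup17 went from 6.22 to 104 TPM with vehicle to 0.11 to 1.22 TPM at 20 nmol/kg (-5.73, SE 2.14, FDR 0.0263), and its FDR was 0.0503 to 0.0505 without library 63, 65 or 66. Mup genes are near-identical copies among which reads can be split. Without library 65, or without 66, the list had 3 genes lower, and without vehicle libraries 44 and 47 it had 2 called.

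Collagens and matrix genes had 20 of 35 members lower and 1 higher, with a median of -0.60, and 8 called lower. Col1a1, a chain of type I collagen, was at 4.25 to 19.2 TPM (median 8.91) with vehicle and at 1.6 to 4.74 TPM (median 2.12) at 20 nmol/kg (-1.77, SE 0.37, FDR 0.00016). Vehicle libraries 44 and 47, at 4.25 and 4.26 TPM, lay within the range of the treated ones. Col3a1 went from 26.6 ± 12.5 to 7.79 ± 3.56 TPM (-1.74, FDR 1.85e-05) and Col1a2 from 14 ± 7.28 to 6.16 ± 2.22 TPM (-1.23, FDR 0.000238). Timp1, an inhibitor of matrix proteases, went from 1.53 ± 1.04 to 0.275 ± 0.224 TPM (-2.28, FDR 0.000977). Col1a1 and Col3a1 are stellate cell markers, of which the other members had no call. The list had 5 members called without vehicle library 43, 45 or 46 and 14 without vehicle libraries 44 and 47.

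Among macrophage and lipid-associated macrophage genes, 16 of 31 fell and 1 rose, with a median of -0.47, and 4 were called lower. Ccl2, the chemokine that draws monocytes, was at 2.06 to 7.36 TPM (median 4.54) with vehicle and at 0.11 to 1.89 TPM (median 0.74) at 20 nmol/kg. The groups were apart by a small margin (-2.89, SE 0.50, FDR 1.13e-05). Mmp12, a macrophage elastase, went from 6.79 ± 4.08 to 1.95 ± 1.22 TPM (-1.84, FDR 0.00203) with overlap. Trem2, a receptor of lipid-associated macrophages, went from 5.31 ± 2.78 to 2.75 ± 1.92 TPM (-0.99, FDR 0.0288) with overlap. Its result turned on single libraries. It was called without library 61 (-1.23), 64 (-1.13), 66 (-1.09), 44 (-1.16) or 47 (-1.22), and did not pass the FDR without 62 (-0.83, FDR 0.0833), 63 (-0.87, FDR 0.0711), 65 (-0.76, FDR 0.105), 43 (-0.83, FDR 0.0795), 45 (-0.94, FDR 0.0523) or 46 (-0.80, FDR 0.0892), nor in the 12 libraries alone (-0.98, FDR 0.101). The number called was 8 without library 61 or 44, 6 without 66, 10 without 47 and 12 without 44 and 47, and the number lower was 9 without 43 or 45, 10 without 66 and 8 in the fit of log2(TPM + 1). The Kupffer cell and macrophage markers summed to 197 to 432 TPM with vehicle and 129 to 298 TPM at 20 nmol/kg, and how much of the fall lay in fewer macrophages was not tested. Of 28 lymphocyte and antigen presentation genes, 5 fell and 1 rose. That count was 12 without library 61, 10 without vehicle library 47, 3 without 63, 64, 66, 43 or 45, and 1 in the fit of log2(TPM + 1). Interferon-stimulated genes had 4 of 28 higher and 3 lower, and 7 and 1 without library 65. Mx2 was called higher (1.13, FDR 1.43e-05). Cxcl10 was called lower (-1.10, FDR 0.0127), but not without library 65 (-0.83, FDR 0.0588) or vehicle library 45 (-0.87, FDR 0.0522). Of 31 proliferation genes, 3 rose and 6 fell. Cdkn1a, the inhibitor p21, went from 38 ± 18.4 to 102 ± 52.5 TPM (1.36, FDR 0.00458). Cdkn1a did not pass the FDR without libraries 65 and 66 (0.94, FDR 0.0757) or without vehicle libraries 44 and 47 (0.9, FDR 0.0686). Mki67, a marker of dividing cells, was at 0.307 ± 0.0924 and 0.33 ± 0.104 TPM (0.03, FDR 0.92, and -0.54 with FDR 0.0486 with the trends removed).

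Nuclear-encoded subunits of the respiratory complexes fell by small amounts. Of 78 tested, 67 were lower and 1 higher, with a median of -0.28. Ndufb3, a subunit of complex I, was at 108 to 130 TPM (median 112) with vehicle and at 78.7 to 95.8 TPM (median 87.0) at 20 nmol/kg (-0.49, SE 0.08, FDR 8.95e-06). The groups of Ndufb3 did not overlap. In the fit of log2(TPM + 1) 57 members fell, and with the length and GC trends removed 30 fell and 2 rose, with a median of -0.11. These mRNAs are short, and their fall stood beside the length trend given above. The summed share of the mitochondrially encoded genes was 10.8% to 11.4% of TPM with vehicle and 9.25% to 10.5% at 20 nmol/kg. Cytosolic ribosomal proteins had 16 of 77 members lower, but with the trends removed 3 were lower and 27 higher, and the count lower was 27 without vehicle library 44 and 7 without 48. Proteasome subunits had 11 of 38 lower and 1 higher, and in the fit of log2(TPM + 1) 5 lower and 12 higher. With the trends removed 4 proteasome subunits were lower and 13 higher. The balance of the proteasome list turned in both of these fits, and that of the ribosomal list with the trends removed.

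By position in the lobule, 10 of 18 periportal hepatocyte genes rose and 4 fell, with a median of 0.42, and 6 were called higher and 2 lower. The periportal genes called higher included Pck1, Tat and Hamp, and those called lower included Cyp2f2. Of 19 pericentral genes, 4 rose and 8 fell, with a median of -0.16, and Rhbg was the member called. The difference between both lists was not tested.

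The 20 nmol/kg group was also set against the neighbouring doses. Against 10 nmol/kg, 2 genes were called (0.0125% of those tested), both lower at 20 nmol/kg. By the FDR alone 13 passed (0.0814%), of which 5 were higher (0.0313%) and 8 lower (0.0501%). Rgs16, a regulator of G protein signalling, was lower at 20 than at 10 nmol/kg, with 23.7 ± 9.22 against 70.2 ± 17.4 TPM (-1.66, SE 0.26, FDR 0.000929). The other gene was the pseudogene Mup-ps16 (-1.97, FDR 0.0481). Against 30 nmol/kg, 83 genes were called (0.52%), 50 higher at 20 nmol/kg and 33 lower. By the FDR alone 936 passed (5.86%), 443 higher and 493 lower. The count of called genes rested on single libraries. It was 7 without library 63, 13 without 61, 25 without 64, 222 without 65, 146 without 66 and 335 without 65 and 66 together. Cyp7a1 was higher at 20 than at 30 nmol/kg, with 53.6 ± 28.1 against 15.9 ± 3.91 TPM (1.61, SE 0.34, FDR 0.0106). Cyp2j9, a P450, was at 5.35 ± 1.63 and 11.1 ± 2.07 TPM (-1.14, SE 0.20, FDR 0.00527).

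Against semaglutide at the same dose of 20 nmol/kg, 91 genes were called (0.57%), 32 higher with BI 456906 and 59 lower. Nnmt was at 385 ± 33.9 TPM with BI 456906 and 173 ± 57 TPM with semaglutide (1.19, SE 0.29, FDR 0.016). Ass1 was at 4580 ± 401 and 2360 ± 502 TPM (0.96, SE 0.14, FDR 5e-05). Ren1 was higher with BI 456906, with 10 to 30 reads against 0 to 4 reads with semaglutide (FDR 2.17e-05), too few for a fold change. Semaglutide library 77 held 21676902 reads, fewer than any library of BI 456906 at 20 nmol/kg, and it was not left out of this comparison. Ntrk2, a neurotrophin receptor, Mmd2 and Tuba8 had differences of 2.52 (FDR 0.000185), 2.28 (FDR 0.000242) and 2.09 (FDR 0.000247). With vehicle they were at 0.6 to 1.51, 1.7 to 3.07 and 0.44 to 2.42 TPM. With BI 456906 at 20 nmol/kg they were at 0.73 to 2.51, 1.31 to 6.19 and 2.12 to 5.82 TPM, overlapping vehicle. Rgs16 was at 23.7 ± 9.22 and 158 ± 40.3 TPM (-2.83, SE 0.26, FDR 5.11e-09), Pklr at 79.7 ± 19.9 and 153 ± 36.6 TPM (-1.05, SE 0.19, FDR 0.000822) and Cyp4a12a at 6.46 ± 4.46 and 51.3 ± 24 TPM (-3.31, SE 0.59, FDR 0.000648). The vehicle libraries held Rgs16 at 32.7 to 87 TPM. The major urinary proteins had 6 members called lower with BI 456906, among them Mup19 (-5.30, FDR 0.00132). Pck1 and Tat gave no such difference, with -0.03 (SE 0.17, FDR 0.965) for Pck1 and 0.04 (SE 0.26, FDR 0.973) for Tat, and an FDR over the threshold does not show that both compounds act alike.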

How the data were processed

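RNA was sequenced from whole liver of mice treated for 30 days. The labels describe SMART-Seq v4 with 1.2 ng of RNA, whereas the study's methods describe another kit. The submitters' processing notes name FastQC 0.11.5, STAR 2.5.2b, RSEM 1.3.0, featureCounts 1.5.1 and GRCm38 (mm10). The deposited gene values are a signal: whole reads divided by 1 factor per library by the authors. Reads were recovered from them, with every nonzero value whole within 1e-06. TPM was used as deposited by the authors. Of 48794 gene identifiers, 48348 had a symbol (GENCODE M21). No column of the authors' own comparisons was used, and the adipose libraries were not used here.

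Genes passing filterByExpr (15964) were fitted with limma/voom (limma 3.58.1, edgeR 4.0.16 and R 4.3.3), with TMM factors and a pseudocount of 0.5, in 1 model of 42 liver libraries in 7 groups, without a block. The design had assumed counts; the deposited signal entered voom directly, and voom on the recovered reads was an alternative. The fitting tools were tested on simulated data, for the comparison with vehicle alone. The other steps, among them the removal of trends and the direct comparisons, were not tested in this way. The 30 pairs of libraries of the same group differed by more than sampling noise, with a lowest chi-square per degree of freedom of 15.7. A called gene had a log2 fold change of at least 1 in size and an FDR of at most 0.05.

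Named genes were the 12 largest rises and falls among called genes with groups apart and at least 1 TPM, up to 4 called members of each list (or the lowest FDR where none was called), the 5 most abundant called genes, the 3 largest differences in each direction of each direct contrast, a fixed set, and examples of what a list holds. The members and the 41 lists were chosen with earlier results of these data known. Car3 was named as a marker. Some genes of the rule are not reported here. Trends on length and GC were removed library by library with lowess (span 0.3). Intervals and floors cover counting error only.

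Alternatives were RLE factors, library size alone, no filter or at least 10 in every library, the 12 libraries alone and quality weights. Others were edgeR and DESeq2 1.42.0 on the recovered reads, log2(TPM + 1), log2(TPM + 0.1) and leaving out each of those 12 libraries. Leaving out libraries 65 and 66, or 44 and 47, and removing the trends were chosen after seeing the data.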

Additional observations from a re-analysis of the deposited data

Results flagged for a closer look

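Among 384 groups of 6 libraries examined for the named genes, 25 held a library whose distance from the nearest of the others exceeded Dixon's critical value at the 95% level, and chance flags about 1 in 20 groups. Values are in TPM, and no explanation was weighed.

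Of the 20 nmol/kg libraries, library 65 was high in Clec2h (0.35, others at most 0.04), Egfr (118, others 51.9 to 75.1), Serpina1e (7670, others 329 to 2290), Selenbp2 (75, others 6.68 to 10.3) and Clock (11.8, others 9.04 to 9.96). It was low in Osgin1 (29.9, others 58.7 to 73.5). Library 66 was high in Slc38a2 (90.6, others 48.2 to 56) and Herpud1 (489, others 349 to 385) and low in Abca1 (25, others 31.6 to 34.3). Library 61 was high in Ubd (2.76, others 0.52 to 1.25) and Lgals3 (18.2, others 7.93 to 11.6). Library 62 was low in Apoe (29700, others 38800 to 43200), and library 63 was high in Saa1 (6670, others 326 to 2070).

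Of the vehicle libraries, library 47 was high in Ehhadh (423, others 255 to 291), Fgl1 (318, others 220 to 247) and Fgb (1250, others 992 to 1090). Library 44 was high in Klhl11 (0.32, others 0.17 to 0.21) and Mtr (2.21, others 0.7 to 1.16). Library 45 was low in Mat1a (1620, others 2020 to 2160), Cyp39a1 (12.7, others 15.4 to 17.1) and Dbp (7.9, others 9.67 to 10.5). Library 46 was high in Mt2 (244, others 37.4 to 104), and library 43 was low in Scd1 (1040, others 1630 to 1800). Library 48 was high in Cyp2a4 (14.5, others 2.05 to 5.67) and Ndufb3 (130, others 108 to 115).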

How the results depend on the processing

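The number of genes called higher (573) was 326 with at least 10 in every library and 213 by log2(TPM + 1). The number called lower (495) was 229 with at least 10 in every library, 301 by log2(TPM + 0.1) and 136 by log2(TPM + 1). By the FDR alone the number lower (3657) was 2146 by log2(TPM + 0.1) and 2210 by log2(TPM + 1). The same fits gave 4327 and 4273 genes higher (3669). The stricter filter tests fewer genes, and the fits of TPM changed the table and the scaling along with the pseudocount. Leaving out each library in turn gave 499 to 682 genes called higher and 410 to 567 called lower, and 3427 to 3798 higher and 3234 to 3651 lower by the FDR alone.

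In these direct comparisons only the 6 libraries of BI 456906 at 20 nmol/kg were left out in turn, and none of the group set against them. Against 10 nmol/kg the 2 called genes were 1 with RLE factors and with at least 10 in every library. They were also 1 by edgeR and by voom on the recovered reads, and 1 to 5 with a library left out. Against 30 nmol/kg the 83 called genes were 52 with at least 10 in every library, 261 with quality weights, 335 without libraries 65 and 66, and 7 to 222 with a library left out. Against semaglutide the 91 called genes were 53 with at least 10 in every library, 143 with quality weights and 65 to 112 with a library left out. The cause of the other shifts was not tested.

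Over 191 named genes and 26 settings there were 4933 alternatives, of which 4683 kept the direction and the side of the threshold, 231 lost the call, 17 gained it and 2 changed sign. The changes of sign were those of Igf1 (-0.11) and Mki67 (-0.54), both with the trends on length and GC removed. Of 120 named called genes, 70 were called in every alternative. No paired analysis was possible because the library numbers of the 2 groups do not repeat.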
